A study of Homo sapiens with 5 samples.

Results

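The insulin-like growth factor binding proteins (IGFBPs) were followed in U87 MG, an established human glioblastoma line, as cells of the line itself and as cells sorted from it. The 7 genes IGFBP1 to IGFBP7 were taken from the deposited table by their symbols, out of 46427 genes, and all 7 had counts in at least 2 libraries. Controls were 2 libraries of U87 MG with no treatment, numbered 2 and 3 (titles u87_control). The other 3 libraries came from U87 MG cells labelled as cancer stem cells and CD133 positive, numbered 1, 2 and 3 (titles f2n11_csc, a code that the labels do not explain). The study set out to look at epigenetic regulators that go with drug resistance and stemness in the CD133-positive cells. The groups share the line, and the labels name no engineered allele. The samples used here include no CD133-negative or mock-sorted cells, so an effect of the sort and one of CD133 cannot be told apart. The labels do not say that the libraries came from separate cultures, and p-values then measure only the spread between these libraries, which may be technical.

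IGFBPs are secreted proteins that bind the insulin-like growth factors IGF-I and IGF-II, carry them outside the cell and hold them away from the type 1 IGF receptor. Proteases such as pappalysin cut the binding proteins and set the growth factors free, and several family members also bind cell surfaces and matrix. In glioma the family is best known through IGFBP2, which is abundant in many high-grade tumours, while IGFBP7 has much weaker affinity for IGFs than the other members.

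The libraries held 17716823 to 29841238 counts. Levels are given as CPM, the library's counts scaled to a common total with TMM factors, unless TPM (the authors' length-scaled value) is named, and a count of 0 allows up to 3 counts, or 0.0822 to 0.227 CPM depending on the library. These floors cover counting error only. The cytoplasmic 7SL RNAs took 5.71 to 6.29% of the counts of the controls, 10.9% and 12% in sorted libraries 1 and 2 and 24.4% in sorted library 3, which stood apart from the others. CDKN2A, CDKN2B and MTAP, which U87 MG is known to lack, had 0 counts in all 5 libraries. PROM1, the gene of CD133, had 12 counts in control 2, 7 in sorted library 1 and 0 in the other 3 libraries, so its transcript did not mark the sorted group. Of the 9 neural stem and glial markers, 5 were tested, with a median log2 fold change of -0.32. NES alone was called higher, at 4.14 to 4.54 CPM against 12.7 to 15.2 CPM (edgeR adjusted p = 0.0253). Over all tested genes edgeR called 2.20% higher and 2.40% lower, the shares to set beside this list and the marker lists below. OLIG2 had 13 and 14 counts in the controls against 23 to 27 counts, or 0.383 to 0.386 CPM against 0.989 to 2.04 CPM (adjusted p = 0.166), and SOX2 had 12 counts in sorted library 2 and 0 elsewhere. SLC1A3 had 48.9 and 41.9 CPM in the controls and lay below both in every sorted library, at 33.8 to 39.3 CPM (edgeR adjusted p = 0.332). FABP7 had 18 and 24 counts in the controls against 0, 22 and 0 in sorted libraries 1, 2 and 3 (log2 fold change -1.03, edgeR adjusted p = 0.755). Among markers of other cells, the leukocyte genes AIF1 and CD3E had 0 counts in all 5 libraries and PTPRC had 3 counts in sorted library 3 and 0 elsewhere. ITGAM had 0 counts in both controls and 8, 18 and 13 counts in sorted libraries 1, 2 and 3, which is at least 8.13-fold higher if each control is set to its floor of 3 counts (edgeR adjusted p = 0.0756). The leukocyte markers summed to 104 to 147 CPM in the controls against 243 to 282 CPM after sorting, nearly all from CD68, the 1 of 4 tested that was called higher. Summed endothelial markers (5 genes, 0 of 4 tested higher and 1 lower) lay at 6.95 to 7.07 CPM in the controls against 2.57 to 4.32 CPM. The 1 lower was TEK, at 4.57 and 4.19 CPM in controls 2 and 3 against 0.147 to 0.557 CPM (edgeR adjusted p = 0.0329). The other tested members, PECAM1, VWF and CDH5, overlapped between groups (log2 fold change 0.00, -0.14 and 2.75). The 6 fibroblast markers (1 higher, 1 lower) summed to 189 to 224 CPM against 419 to 573 CPM, of which COL1A2 took 373 to 528 CPM. Of the mesenchymal glioma markers, FN1 was called higher, at 1194 to 1348 CPM against 7381 to 9808 CPM (edgeR adjusted p = 0.0158), and VIM had 3726 to 4343 CPM against 5710 to 9559 CPM (adjusted p = 0.183). Their part in the IGFBP values was not tested, and in bulk RNA fewer cells that express a gene and less of its RNA per cell cannot be told apart.

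The promoters of 4 family members with a single annotated start are shown because they stand for the different outcomes: IGFBP4 and IGFBP6 were higher in sorted cells, IGFBP5 was near the detection limit there, and IGFBP3 was the most abundant member in controls. Each line holds the 250 bases before the annotated start, on the gene's strand, from RefSeq (GRCh38.p14). The windows are chr7:45921273-45921522 (minus strand) for IGFBP3, chr17:40443200-40443449 (plus) for IGFBP4, chr2:216695550-216695799 (minus) for IGFBP5 and chr12:53097417-53097666 (plus) for IGFBP6. Capitals mark the motif matches described after the sequences.
IGFBP3: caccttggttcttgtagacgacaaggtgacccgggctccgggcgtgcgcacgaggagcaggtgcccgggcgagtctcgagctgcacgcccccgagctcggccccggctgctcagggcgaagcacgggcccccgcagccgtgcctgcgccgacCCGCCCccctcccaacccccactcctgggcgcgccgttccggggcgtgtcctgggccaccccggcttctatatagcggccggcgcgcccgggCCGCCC
IGFBP4: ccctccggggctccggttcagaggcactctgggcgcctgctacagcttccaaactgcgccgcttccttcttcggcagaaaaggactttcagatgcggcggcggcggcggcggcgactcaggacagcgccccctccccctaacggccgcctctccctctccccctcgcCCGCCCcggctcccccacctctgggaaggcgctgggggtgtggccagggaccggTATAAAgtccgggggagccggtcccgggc
IGFBP5: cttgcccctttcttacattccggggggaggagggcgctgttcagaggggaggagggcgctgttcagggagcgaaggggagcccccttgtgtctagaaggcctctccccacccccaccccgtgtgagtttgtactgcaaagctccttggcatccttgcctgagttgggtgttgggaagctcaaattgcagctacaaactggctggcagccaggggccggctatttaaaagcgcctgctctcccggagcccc
IGFBP6: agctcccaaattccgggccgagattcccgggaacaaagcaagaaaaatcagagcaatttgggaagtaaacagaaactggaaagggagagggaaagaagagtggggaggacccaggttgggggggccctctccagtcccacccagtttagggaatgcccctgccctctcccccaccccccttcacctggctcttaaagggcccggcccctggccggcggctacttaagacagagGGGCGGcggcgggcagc
The search covered both strands for a TATA box, spelled TATAAA, for a GC box, spelled GGGCGG, for the CCAAT box, for ACGTG, the core of hypoxia response elements, and for the AP-1 site, spelled TGANTCA. Among these 4 genes, IGFBP4 alone had the exact spelling TATAAA, at positions -29 to -24 from the start. Of 35116 RefSeq promoter windows of this length, 10.7% held it. Other spellings of a TATA box were not sought, so the other windows cannot be said to lack one. IGFBP3 held the GC box 2 times on the opposite strand (positions -98 to -93 and -6 to -1), IGFBP4 held it on the opposite strand at -83 to -78, and IGFBP6 on the gene strand at -17 to -12, while 42.6% of all windows held it. The other 3 motifs had no match in the 4 windows, and they occur in 32% (CCAAT box), 18.5% (hypoxia core) and 6.57% (AP-1) of all windows. IGFBP5 had no match to any of the 5 motifs. GC content was 76% for IGFBP3, 71.6% for IGFBP4 and 61.2% for both IGFBP5 and IGFBP6, against a median of 58% over all windows. CpG dinucleotides numbered 32, 24, 8 and 9 for IGFBP3, IGFBP4, IGFBP5 and IGFBP6, against a median of 11. Of the 7 genes 5 matched the promoter table by symbol, IGFBP2 with 3 windows that are not printed, and IGFBP1 and IGFBP7 did not match.

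The family split into genes that were higher in sorted cells, genes that were near 0 there and genes without a stable difference. Of the 7 genes, all passed the filter on low counts, 2 were higher (IGFBP4 and IGFBP6) and 0 were lower by edgeR's quasi-likelihood test with a Benjamini-Hochberg adjusted p under 0.05. Over all 16304 tested genes 2.20% were called higher and 2.40% lower, 4.61% in all. At an unadjusted p under 0.05 by the same test, 2 family genes were higher and 3 lower (IGFBP1, IGFBP2 and IGFBP5), beside 12.2% and 13.6% of all genes. With DESeq2, 2 family genes were called higher and 1 lower, beside 8.76% and 8.16% of all genes. With limma-voom it was 2 and 2, beside 3.78% and 5.35%. Without the filter on low counts it was 2 and 1, beside 1.93% and 2.40%. The groups did not overlap for 5 of the 7 genes, 2 with every sorted library above both controls and 3 with every one below, and of all tested genes 50.4% did not overlap (22.7% above and 27.7% below). The median log2 fold change over the 7 genes was 0.15, and over all tested genes it was -0.00.

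**Figure D1:**
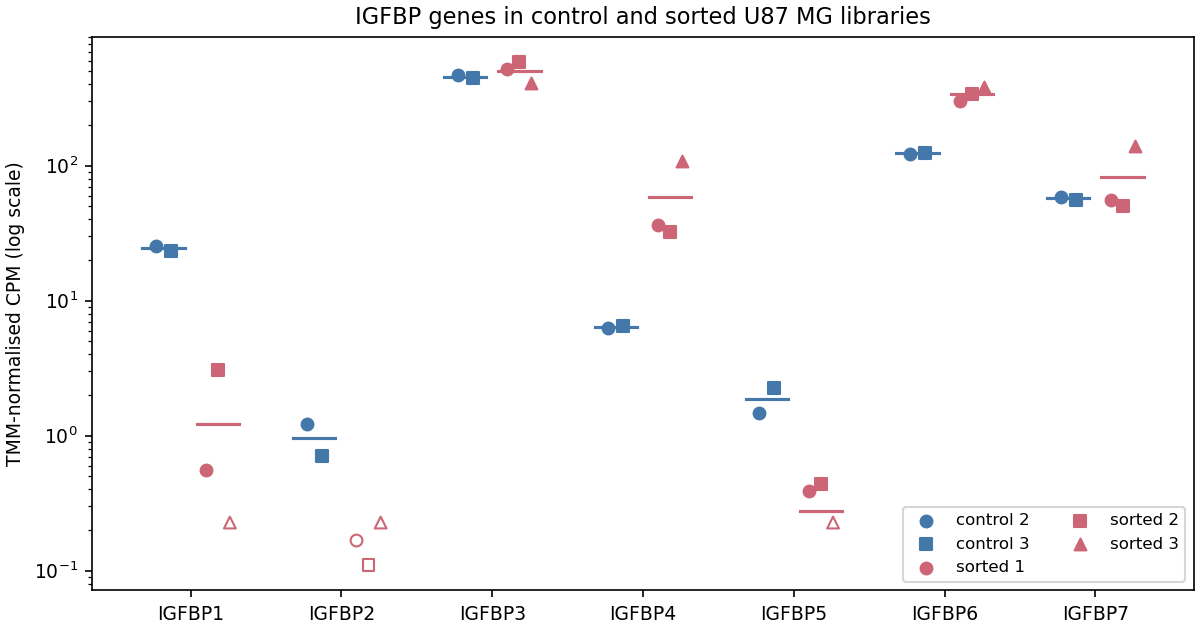
TMM-normalised CPM of the 7 IGFBP genes (log axis) in 2 control libraries (blue) and 3 sorted libraries (red); horizontal lines are group means, and open symbols mark a count of 0, drawn at the CPM of 3 counts in that library. IGFBP4 and IGFBP6 were higher in every sorted library than in both controls, IGFBP1, IGFBP2 and IGFBP5 were lower, and sorted library 3 set the highest IGFBP4 and IGFBP7 values.

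IGFBP4 (gene 3487, chromosome 17, 40443450 to 40457725, GRCh38.p14) is a binding protein that pappalysin cuts, and it showed the largest gain of the family. Controls 2 and 3 had 6.29 and 6.44 CPM, and sorted libraries 1, 2 and 3 had 36.3, 32.1 and 108 CPM. Every sorted library lay above both controls, and sorted library 3 was far above the other sorted libraries. The control mean was 6.36 ± 0.101 CPM (SD, n = 2) and the sorted mean 58.9 ± 42.9 CPM (SD, n = 3), 9.22-fold higher (log2 fold change 3.21 ± 0.63 SE, edgeR adjusted p = 0.0474). Without sorted library 3 the log2 fold change was 2.42, or 5.36-fold (edgeR adjusted p = 8.95e-05), and 15.4% of all genes were then called higher.

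IGFBP6 (gene 3489, chromosome 12, 53097667 to 53102340), the member that prefers IGF-II over IGF-I, rose with little spread. The control libraries stood at 123 and 124 CPM, and sorted libraries 1, 2 and 3 at 301, 339 and 381 CPM. The groups were far apart by CPM, and on that scale no single sorted library set the difference. By TPM sorted library 3 had 189, just below controls 2 and 3 at 189.8 and 212. The control mean of 124 ± 0.941 CPM (SD, n = 2) and the sorted mean of 340.4 ± 39.9 CPM (SD, n = 3) differed 2.75-fold (log2 fold change 1.46 ± 0.20 SE, edgeR adjusted p = 0.025). Without sorted library 3 the fold was 2.59.

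IGFBP1 (gene 3484, chromosome 7, 45888488 to 45893660), best known as a binding protein of liver and decidua that insulin suppresses, had far fewer counts after sorting. There were 860 and 852 counts, or 25.5 and 23.3 CPM, in controls 2 and 3 against 10, 84 and 0 counts, or 0.557, 3.08 and 0 CPM, in sorted libraries 1, 2 and 3. All 3 sorted libraries lay far below both controls, but they differed widely among themselves. The fitted level was 18.4-fold lower (log2 fold change -4.20 ± 1.06 SE), and the edgeR adjusted p of 0.0762 missed the threshold. Other adjusted p-values were 0.116 (DESeq2), 0.039 (limma-voom) and 0.0427 (edgeR without the filter on low counts), and 0.012 without sorted library 3. Without sorted library 2, which held most of the sorted counts, the fitted level was 77.7-fold lower (adjusted p = 0.0698).

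IGFBP2 (gene 3485, chromosome 2, 216632828 to 216664436), the family member most often linked to high-grade glioma, was scarce in this line. Controls 2 and 3 held 41 and 26 counts, or 1.22 and 0.712 CPM, and all 3 sorted libraries held 0 counts. With the sorted floor at 3 counts per library the level was at least 5.74-fold lower in sorted cells. All sorted libraries thus lay below both controls, with an adjusted p of 0.0816 (edgeR), 0.00981 (DESeq2) and 0.0447 (limma-voom).

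IGFBP5 (gene 3488, chromosome 2, 216672105 to 216695549), a matrix-bound member that several proteases cut, was also scarce. Controls 2 and 3 had 50 and 83 counts, or 1.48 and 2.27 CPM, against 7, 12 and 0 counts, or 0.39, 0.44 and 0 CPM, in sorted libraries 1, 2 and 3. Each sorted library lay below both controls (log2 fold change -2.67 ± 1.06 SE, edgeR adjusted p = 0.182). RefSeq GRCh38.p14 places the noncoding gene IGFBP-AS1 over 1104 bases at the start of IGFBP5, and its gene ID had 0 counts in all 5 libraries. Another noncoding gene, LOC124900515, overlaps 10326 bases of IGFBP5. Its gene ID was not in the deposited table, so its level is unknown.

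IGFBP3 (gene 3486, chromosome 7, 45912245 to 45921272), the main IGF carrier in serum and an IGF-independent growth inhibitor in many cells, stayed abundant in both groups. Controls 2 and 3 had 467 and 444 CPM against 519, 588 and 410.4 CPM in sorted libraries 1, 2 and 3. The groups overlapped because sorted library 3 lay below both controls while the other sorted libraries lay above them. The difference was small (log2 fold change 0.15 ± 0.23 SE, edgeR adjusted p = 0.738), and without sorted library 3 it was 0.28 (adjusted p = 0.0477). With library size alone as the scaling it turned to -0.22.

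IGFBP7 (gene 3490, chromosome 4, 57030773 to 57110385), a low-affinity member found around tumour vessels and in stroma, had a mean that rested on 1 library. Controls 2 and 3 had 59 and 56 CPM, against 55.5 and 50.5 CPM in sorted libraries 1 and 2 and 139.8 CPM in sorted library 3. Sorted libraries 1 and 2 lay just below the controls and sorted library 3 far above them. With all libraries the log2 fold change was 0.51 ± 0.47 SE (edgeR adjusted p = 0.549), and without sorted library 3 it was -0.12 (adjusted p = 0.481). The 3' part of the gene overlaps POLR2B by 386 bases, and POLR2B had 228 and 229 CPM in the controls against 142 to 178 CPM in the sorted libraries (edgeR adjusted p = 0.15). At the start of IGFBP7, 624 bases are shared with the noncoding gene IGFBP7-AS1, which had at most 1 count in any library. Inside IGFBP7, the pseudogene UBE2CP3 also had at most 1 count, and the snoRNA gene LOC124900898 was not in the deposited table. The strand setting of the counting is not given, so at IGFBP5 and IGFBP7 reads of the overlapping genes cannot be told apart.

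**Figure D2:**
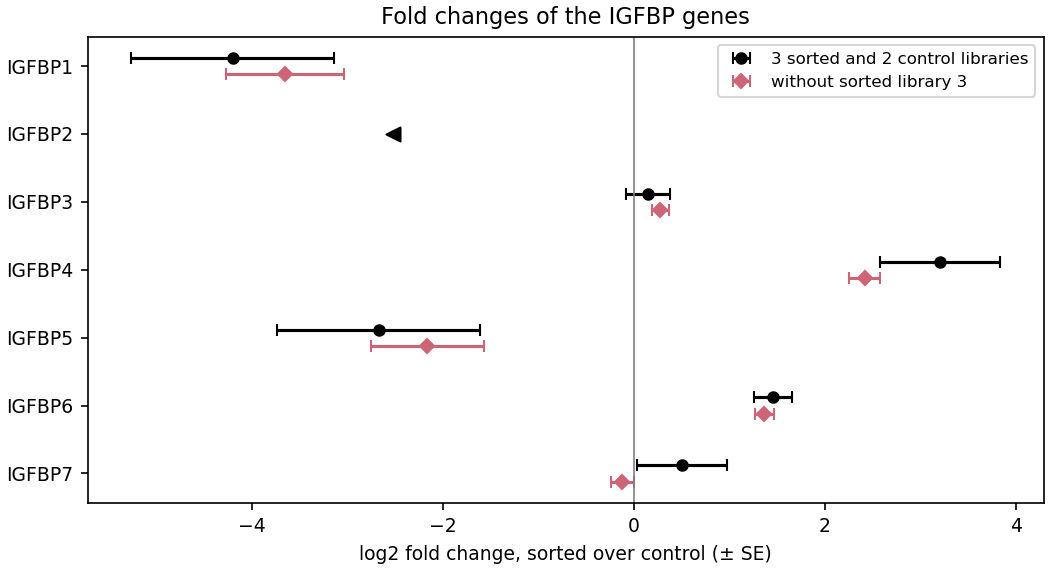
Log2 fold change of sorted over control with its SE from edgeR (horizontal axis) for the 7 IGFBP genes, with all 5 libraries (black circles) and without sorted library 3 (red diamonds). The arrow for IGFBP2 is the bound set by 3 counts per sorted library, at least 5.74-fold lower; IGFBP4 moved from 3.21 to 2.42, IGFBP7 moved from 0.51 to -0.12, and the others kept their sign.

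The edgeR calls depended on which libraries entered the fit. Without control 2, control 3, sorted library 1 or sorted library 2, edgeR called 0 of the 7 genes. Of all tested genes it called 0 in the fits without control 2, control 3 or sorted library 1, where 1789, 1753 and 3741 had an unadjusted p under 0.05, and 12 higher and 7 lower without sorted library 2. At an unadjusted p under 0.05, 2 family genes were higher in each of the 4 fits, and 1, 2, 2 and 3 were lower, beside 4.97 to 11.6% of all genes higher and 5.43 to 13.3% lower. DESeq2 called 2 family genes higher in each, and 0, 0, 1 and 2 lower; over all genes it called 308, 299, 991 and 1057 higher and 138, 140, 997 and 858 lower. Limma-voom called 0, 0, 1 and 0 family genes higher and 0 lower in each; over all genes it called 0, 0, 139 and 124 higher and 0, 0, 224 and 68 lower. Without sorted library 3, edgeR called 3 family genes higher (IGFBP3, IGFBP4 and IGFBP6) and 3 lower (IGFBP1, IGFBP2 and IGFBP5), when 15.4% and 16.8% of all genes were called higher and lower. IGFBP4 and IGFBP6 were positive, and IGFBP1, IGFBP2 and IGFBP5 negative, under every scaling, filter, tool and left-out library in which they were tested.

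Ordered per length by the authors' TPM, the controls ran from IGFBP3 through IGFBP6, IGFBP7, IGFBP1, IGFBP4 and IGFBP2 to IGFBP5. Control means were 268 ± 9.47 TPM for IGFBP3, 201 ± 15.8 for IGFBP6, 61.9 ± 2.06 for IGFBP7, 24.7 ± 0.188 for IGFBP1, 4.43 ± 0.389 for IGFBP4, 1.02 ± 0.303 for IGFBP2 and 0.463 ± 0.169 for IGFBP5 (SD, n = 2). Neighbours in this order did not overlap between the control libraries. The sorted libraries had IGFBP6 at the top with 293 ± 91.2 TPM, then IGFBP3 with 169 ± 82.8, IGFBP7 with 40.7 ± 5.26, IGFBP4 with 18.3 ± 4.35, IGFBP1 with 0.793 ± 1.08 and IGFBP5 with 0.0452 ± 0.0393 (SD, n = 3), and IGFBP2 was listed at 0. The values of the sorted libraries overlapped between IGFBP6 and IGFBP3 and between IGFBP1 and IGFBP5, while within each sorted library IGFBP6 was above IGFBP3. On this TPM scale IGFBP6 had 189.8 and 212 in controls 2 and 3 against 333, 358 and 189 in sorted libraries 1, 2 and 3, so sorted library 3 lay just below both controls although its CPM was the highest. IGFBP3 had 261 and 275 TPM in the controls against 208, 225 and 73.7 TPM, and IGFBP7 60.5 and 63.4 TPM against 40.7, 35.5 and 46 TPM. Both lay below both controls by TPM and overlapped by CPM, and the median of all genes lay lower on the TPM scale, by -0.64 on log2(TPM + 1). IGFBP6 ranked 385 and 398 by TPM among 19672 protein-coding genes in the controls against 140 to 182 after sorting, and IGFBP4 ranked 8297 and 8322 against 1274 to 3468.

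IGFBP3 and IGFBP6 made up most of the family's RNA in every library, and their shares changed places. IGFBP3 held 48.2% and 47.3% of the summed IGFBP TPM in controls 2 and 3, against 34.7%, 35.4% and 22.2% in sorted libraries 1, 2 and 3. IGFBP6 held 35% and 36.5%, against 55.6%, 56.4% and 57%. Neither pair of ranges overlapped, and the IGFBP6 share was nearly the same in all 3 sorted libraries. IGFBP1 held 4.54% and 4.28% in the controls against at most 0.319% in the sorted libraries, and IGFBP4 0.767% and 0.81% against 2.29 to 6.95%. IGFBP7 held 11.2% and 10.9%, against 6.8%, 5.59% and 13.9%, so its groups overlapped.

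**Figure D3:**
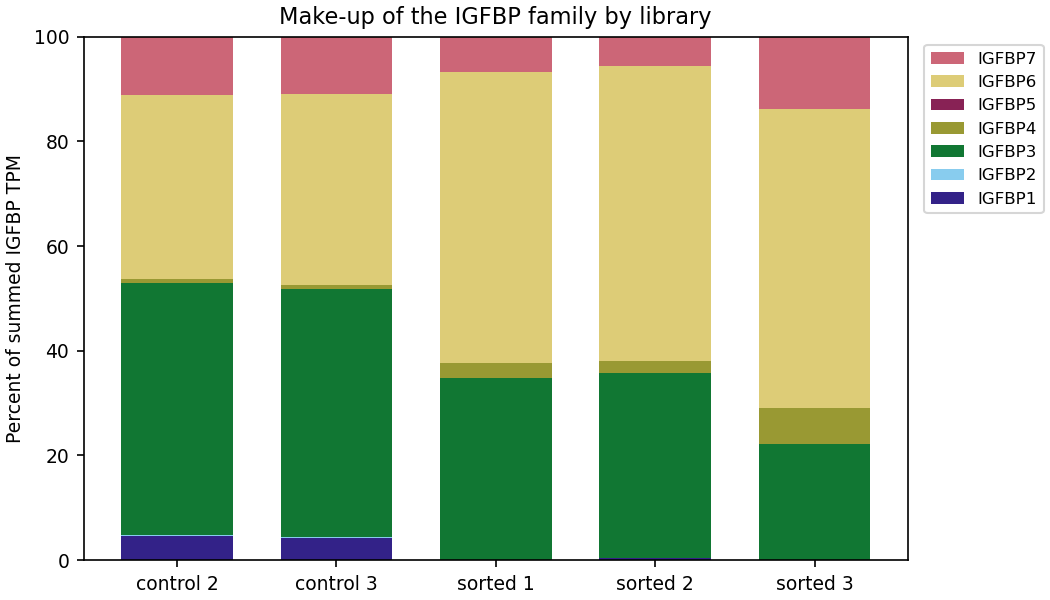
Share of each IGFBP gene in the summed TPM of the 7 genes (vertical axis, percent) in the 2 control and 3 sorted libraries. IGFBP6 took 35% and 36.5% in controls against 55.6 to 57% after sorting, and IGFBP1 took 4.54% and 4.28% against at most 0.319%.

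Ratios between members within a library do not depend on how libraries are scaled. The TPM ratio of IGFBP6 to IGFBP3 was 0.727 and 0.773 in controls 2 and 3 against 1.6, 1.59 and 2.56 in sorted libraries 1, 2 and 3, so the order of the most abundant pair turned in every sorted library. The ratio of IGFBP4 to IGFBP7 was 0.0687 and 0.0742 in the controls against 0.423, 0.41 and 0.501. These sorted values lay close together although both genes were far higher by CPM in sorted library 3 than in the other libraries. The ratio of IGFBP4 to IGFBP6 was 0.0219 and 0.0222 against 0.0517, 0.0406 and 0.122. Mean log2 ratios differed between the groups by 1.32, 2.63 and 1.53 for these 3 pairs, and the two-sided exact permutation p was 0.2 for each, which is the smallest that 3 against 2 libraries allow.

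**Figure D4:**
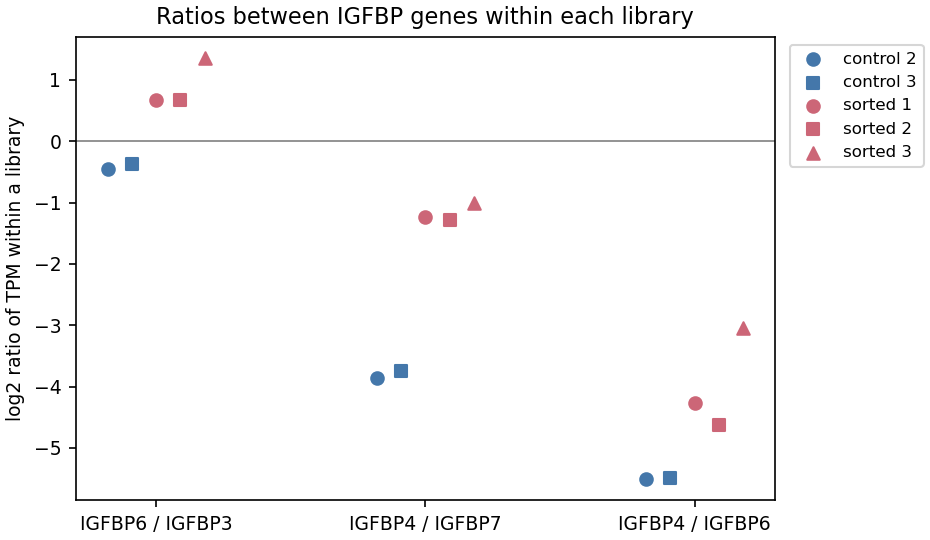
Log2 ratio of TPM between members within each library (vertical axis; 0 marks equal levels) for IGFBP6 over IGFBP3, IGFBP4 over IGFBP7 and IGFBP4 over IGFBP6, in control (blue) and sorted (red) libraries. The sorted points lay above both controls for all 3 pairs, and the log2 ratio of IGFBP4 to IGFBP7 lay at -3.86 and -3.75 for the controls against -1.24 and -1.29 for sorted libraries 1 and 2, with sorted library 3 close to these.

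Among the other genes of the IGF system, the growth factors themselves were at the detection limit. IGF1 had 4 counts in control 2, 10 in sorted library 3 and 0 in the other 3 libraries, and IGF2 had 11 counts in sorted library 2 and 0 elsewhere. INS and IGFALS, the acid-labile subunit that joins IGFBP3 or IGFBP5 and an IGF in serum, had 0 counts in all 5 libraries. None of these 4 genes passed the filter on low counts. Of the receptors, IGF1R, the signalling receptor for both IGFs, had 4.27 and 3.2 CPM in controls 2 and 3 against 3.12, 3.7 and 0.908 CPM in sorted libraries 1, 2 and 3. The groups overlapped (log2 fold change -0.52 ± 0.59 SE, edgeR adjusted p = 0.642). INSR, the insulin receptor gene, had 8.01 and 9.09 CPM against 3.51, 3.99 and 3.93 CPM, below both controls in each sorted library (adjusted p = 0.0611 by edgeR, 0.0108 by DESeq2 and 0.0416 by limma-voom). IGF2R, which takes IGF-II into the cell for breakdown, overlapped between groups, at 81.9 and 92.1 CPM against 72.4 to 103 CPM.

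Over all lists of the IGF system outside the family, 4 of 46 tested genes were higher and 2 lower by edgeR, beside 2.20% and 2.40% of all genes. Without sorted library 3 the counts were 13 and 7, beside 15.4% and 16.8% of all genes. The 4 were CAV1, PAPPA, HTRA1 and KAZALD1, and the 2 were STC2 and CCN3. All 6 lost their call without control 2, control 3, sorted library 1 or sorted library 2, when edgeR called 0 of the list genes. In these fits 6, 6, 10 and 11 list genes were higher and 4, 4, 4 and 5 lower at an unadjusted p under 0.05, beside 5.18%, 4.97%, 10.3% and 11.6% of all genes higher and 5.43%, 5.47%, 13.3% and 12.4% lower. Without sorted library 1 or sorted library 2, DESeq2 called 9 and 8 list genes higher and 2 and 2 lower. Of all 15893 and 15576 genes then tested, it called 991 and 1057 higher and 997 and 858 lower. Limma-voom called 3 and 2 list genes higher and 0 and 1 lower in the same fits. Of all genes it called 139 and 124 higher and 224 and 68 lower. By list, 2 of 9 tested proteases and inhibitors rose and 1 fell, 1 of 5 binding partners rose, 2 of 8 fold relatives rose and 1 fell, and 0 of 3 receptors, 0 of 20 adaptors and signalling genes and 0 of 2 IGF2 mRNA binding protein genes passed. At an unadjusted p under 0.05 the last 3 lists had 0, 2 and 1 higher and 1, 1 and 0 lower, beside 12.2% and 13.6% of all genes. HTRA1 belongs to both the protease and the fold relative list.

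Of the enzymes that cut IGFBPs and their inhibitors, PAPPA and HTRA1 were called higher and STC2 lower by edgeR in the main fit. PAPPA, which encodes pappalysin-1, the protease of IGFBP4 and IGFBP5 (gene 5069, chromosome 9, 116153791 to 116402321), had 65.1 and 63 CPM in controls 2 and 3 against 270.0, 195 and 276 CPM in sorted libraries 1, 2 and 3. All sorted libraries were well above both controls, 3.86-fold on the fitted scale (log2 fold change 1.95 ± 0.23 SE, edgeR adjusted p = 0.0204). HTRA1, a secreted serine protease that cuts IGFBP5 and itself carries an IGFBP-like domain, rose from 243 and 254 CPM to 1039, 944 and 1544 CPM, or 4.72-fold (adjusted p = 0.025). STC2, a stanniocalcin that binds and blocks pappalysin-1, fell from 101 and 95.4 CPM to 29.3, 35.2 and 50.7 CPM, or 2.57-fold lower (adjusted p = 0.0457). PAPPA, HTRA1 and STC2 showed no overlap between groups. The STC2 call was lost with RLE or upper quartile scaling (edgeR adjusted p = 0.0508 and 0.0524). STC1, the related inhibitor, had 1066 and 904 CPM against 899, 857 and 632 CPM (adjusted p = 0.488). PAPPA2, the related pappalysin that cuts IGFBP5 and IGFBP3, had 4.3 and 4.52 CPM against 7.03 to 8.39 CPM (adjusted p = 0.13).

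Of the genes whose products bind IGFBPs at the cell surface, CAV1, the caveolin gene, rose from 715 and 671 CPM to 1493, 1565 and 1928 CPM, or 2.4-fold (edgeR adjusted p = 0.0444). LRP1, ITGA5 and TMEM219, the last a receptor for IGFBP3, also had every sorted library above both controls, as did 22.7% of all genes, and their log2 fold changes of 1.14, 0.91 and 0.99 had adjusted p of 0.0576, 0.0713 and 0.107. ITGB1, the integrin gene that completes this list of 5, had 1205 and 1118 CPM against 991 to 1154 CPM, so its groups overlapped (log2 fold change -0.14, adjusted p = 0.727). Among relatives that share the IGFBP fold, KAZALD1, a secreted protein with an IGFBP-like domain, rose from 5.19 and 4.98 CPM to 26.1, 26 and 64.2 CPM, or 7.6-fold (adjusted p = 0.0359). CCN3, a matricellular member of the CCN family, fell from 20.4 and 18.2 CPM to 4.18, 5.9 and 3.03 CPM, or 4.37-fold lower (adjusted p = 0.0295). KAZALD1 was highest in sorted library 3, as IGFBP4 was, while CCN3 was lowest there. Of the adaptors, IRS1 had 45.8 and 48.6 CPM against 25.5 to 46.1 CPM, and IRS2 2.49 and 4.3 CPM against 2.34 to 5.22 CPM (adjusted p = 0.541 and 0.916).

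**Figure D5:**
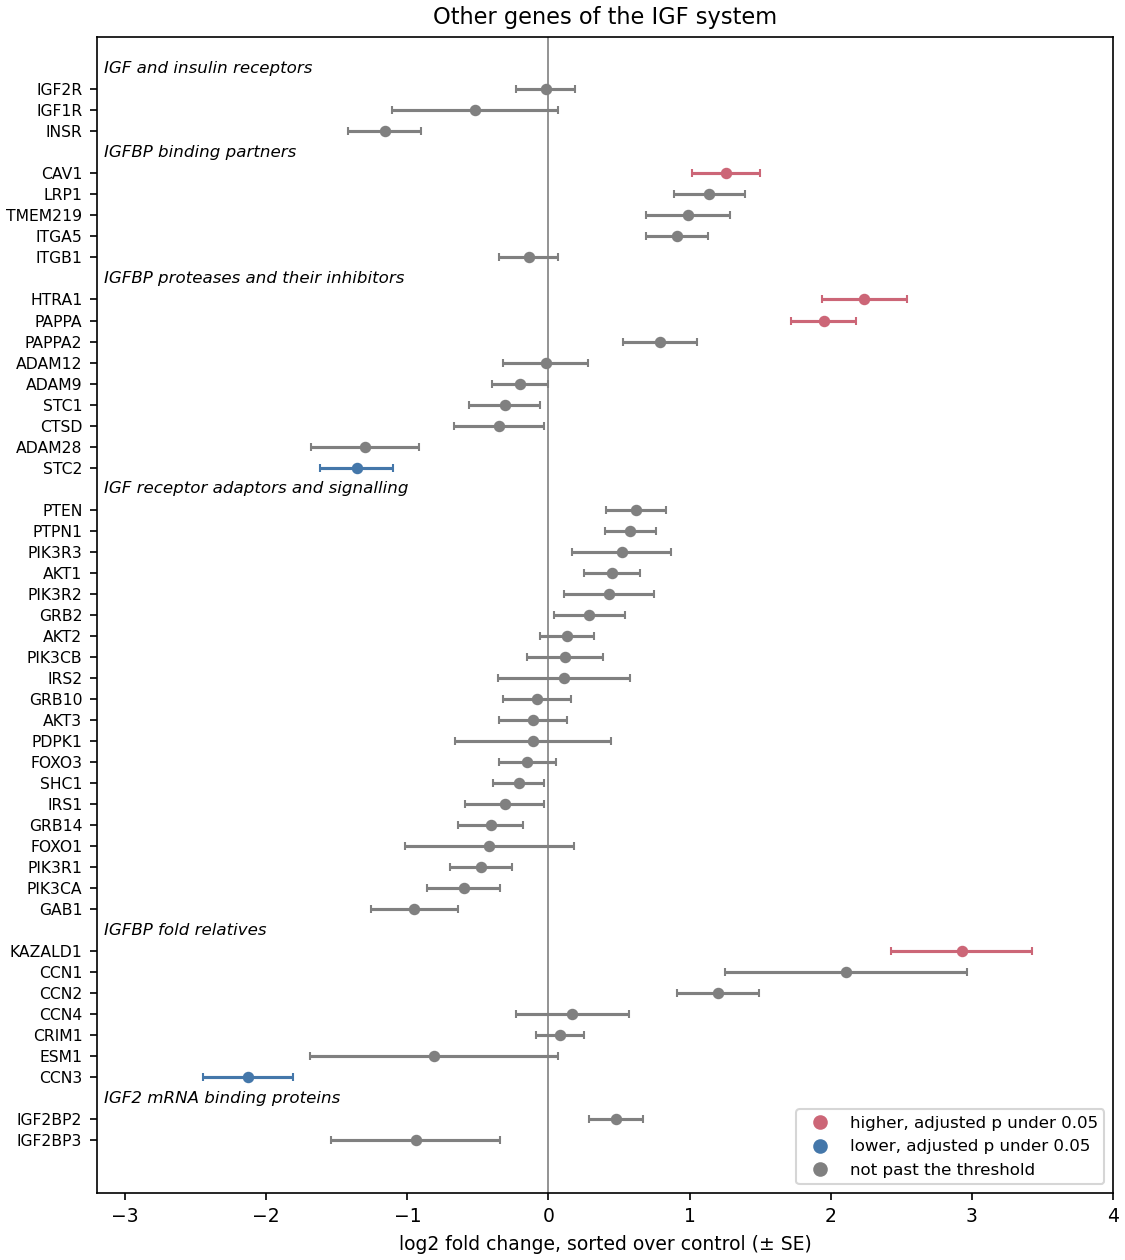
Log2 fold change of sorted over control with its SE from edgeR (horizontal axis) for the tested genes of the IGF system outside the IGFBP family, grouped by list; HTRA1 is drawn once, among the proteases. Red points passed the adjusted threshold as higher (CAV1, PAPPA, HTRA1 and KAZALD1), blue points as lower (STC2 and CCN3), and grey points did not pass.

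Next to the IGFBPs on their chromosomes, none of the tested neighbours passed the threshold by edgeR, beside 4.61% of all tested genes. Outside the family, POLR2B, TOP2A and ADGRL3 had every sorted library below both controls, with unadjusted edgeR p of 0.031, 0.0283 and 0.0265. RPL37A and SPRYD3 had every sorted library above both controls, with unadjusted edgeR p of 0.189 and 0.0506. Of all tested genes, 27.7% lay below both controls in every sorted library and 22.7% above. No neighbour was higher at an unadjusted p under 0.05, and of all genes 12.2% were higher and 13.6% lower at that level. IGFBP1 and IGFBP3 lie 18584 bases apart on chromosome 7, and in sorted libraries IGFBP1 had at most 3.08 CPM while IGFBP3 had 410.4 to 588 CPM. IGFBP2 and IGFBP5 lie 7668 bases apart on chromosome 2, and both were scarce in controls and at or near 0 in sorted cells. SOAT2, 1145 bases from IGFBP6, had at most 1.58 CPM in any library, and SPRYD3 on its other side had 23.8 and 26.4 CPM in the controls against 32.5 to 39.7 CPM in the sorted libraries (adjusted p = 0.195 by edgeR). TOP2A, the topoisomerase gene of dividing cells 25553 bases before IGFBP4, had 561 and 493 CPM against 264 to 392 CPM (adjusted p = 0.144), and TNS4 on the other side had at most 0.39 CPM. Of the outer neighbours in the deposited table, ADCY1 and TNP1 had 0 counts in all 5 libraries, RPL37A and TNS3 had adjusted p of 0.409 and 0.476, and ADGRL3 beyond IGFBP7 had 0.356 and 0.466 CPM in the controls and 0 counts after sorting (adjusted p = 0.139).

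Likeness to each member was measured among tested protein-coding genes by the root mean square difference of log2 CPM after subtracting each gene's mean over the 5 libraries. For IGFBP4 the nearest genes were GALNT15, the MHC class II gene HLA-DPB1 and the fold relative KAZALD1, at 0.14, 0.16 and 0.17, all with their highest level in sorted library 3. For IGFBP6 they were TRIM4, the proprotein convertase gene PCSK5 and MPV17L, at 0.07, 0.08 and 0.09. For IGFBP3 they were the mechanosensitive channel gene PIEZO1, PBXIP1 and the collagen galactosyltransferase gene COLGALT1, each at 0.03, and for IGFBP7 ZCCHC7, TAF12 and CMC4, at 0.02, 0.02 and 0.04. ZCCHC7, at 28.9 to 32.6 CPM in 4 libraries, reached 78.7 CPM in sorted library 3, the same library that was high for IGFBP7. For IGFBP5 the nearest were NAP1L2, PARD3B and C2orf88 at 0.24, 0.24 and 0.25, and for IGFBP1 no gene came nearer than the cadherin gene CDH11 at 0.97, followed by POC1B-GALNT4 and KRT75 at 1.04 and 1.06. For IGFBP2 they were DOK5, ZNF529 and TMPRSS11E at 0.07 to 0.11, which like IGFBP2 had 0 counts in all 3 sorted libraries and 0.657 to 1.28 CPM in controls, so these distances rest on few counts.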

How the data were processed

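RNA of 5 U87 MG libraries was sequenced after TRIzol extraction and a stranded total RNA kit, per the labels' protocols. StringTie and the build GRCh38 are named in the submitters' processing notes; neither the aligner nor the strand setting is known here. Per gene, the deposited table gave estimated counts as whole numbers, and FPKM and TPM computed by the authors, per the file headers. Of 46427 genes, 44698 matched RefSeq GRCh38.p14 by gene ID, which gave coordinates.

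The count test was edgeR 4.0.16 (R 4.3.3): filterByExpr, TMM scaling, and the robust quasi-likelihood test of sorted against control, without covariates. P-values were adjusted by Benjamini-Hochberg across the whole fitted table and called under 0.05. The SE was taken as the size of the log2 fold change over the root of its F statistic. TPM, on the authors' scale, was used for levels between genes and for ratios within a library. Log2 CPM used a prior count of 2. No library repeated another (lowest chi-square per degree of freedom over genes 20.0). The tests were checked on simulated counts.

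Alternatives were other scalings, other low-count filters, DESeq2 1.42.0, limma-voom (limma 3.58.1), limma-trend on log2 TPM or FPKM (pseudocounts 1 and 0.1), a fit restricted to protein-coding genes, one with a replicate block, and each library left out. Named were the 7 members, list genes past the threshold, the main ligands, receptors, proteases and IRS adaptors, neighbouring protein-coding genes in the table and the 3 most alike genes per member. LRP1, ITGA5, TMEM219 and ITGB1 were named after their values were seen. Members and lists were chosen with earlier results of these data known.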

Additional observations from a re-analysis of the deposited data

How the results depend on the processing

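Directions held for IGFBP1, IGFBP2, IGFBP4, IGFBP5 and IGFBP6 under all alternatives run. IGFBP3 (0.15) was -0.22 with library size alone, -0.82 and -0.83 on log2(TPM + 1) and log2(TPM + 0.1), and -0.28 on either log2 FPKM scale. IGFBP7 (0.51) was -0.01, -0.60 and -0.61, and -0.07 on either FPKM scale, and -0.12 without sorted library 3, with all genes or protein-coding genes alone; with any library left out it ranged from -0.12 to 0.77. These scales also moved the median of all genes, by -0.40 with library size alone, -0.64 and -0.94 on TPM and -0.26 and -0.45 on FPKM. Near-zero changes of other genes also turned: IGF2R (-0.02) was 0.05 with upper quartile scaling, 0.06 without control 3, 0.02 without sorted library 2 and 0.09 without sorted library 3 in both gene sets, with a range of -0.17 to 0.09 over left-out libraries. PAPPA2 (0.79) was -0.03 and -0.07 on TPM. IRS2 (0.11) was -0.36 with library size alone, -0.28 and -0.71 on TPM, -0.10 and -0.26 on FPKM, -0.24 without control 2 (range -0.24 to 0.54 over left-out libraries), -0.21 without sorted library 3 and -0.22 without it among protein-coding genes. The cause was not tested for any of these.

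Family genes called higher (2) were 1 with library size alone, 1 and 0 on TPM, and 0 to 3 with a library left out. IGFBP6 lost its call with library size alone (edgeR adjusted p = 0.0579). It also did on log2(TPM + 1) and log2(TPM + 0.1), with limma-trend adjusted p of 0.292 and 0.304. IGFBP4 lost its call on log2(TPM + 0.1) (limma-trend adjusted p = 0.0543). Family genes called lower (0) were 1 without the filter on low counts, 1 (DESeq2), 2 (limma-voom), 3 and 1 on TPM, 2 and 1 on FPKM, and 0 to 3 with a library left out. Genes of the other IGF lists called higher (4) were 10 (DESeq2), 7 (limma-voom), 1 and 0 on TPM, and 0 to 13 with a sorted library left out. PAPPA lost its call on both TPM scales (limma-trend adjusted p = 0.162 and 0.184), and HTRA1 on log2(TPM + 0.1) (0.0605). List genes called lower (2) were 1 with RLE, upper quartile or library size scaling, 4 and 1 on TPM, 4 on log2(FPKM + 1), and 0 to 7 with a sorted library left out. STC2 lost its call with RLE and upper quartile scaling, and CCN3 with library size alone (edgeR adjusted p = 0.0517). Of all genes, 359 higher and 392 lower became 113 and 314 with library size alone, 1429 and 1331 (DESeq2), 617 and 873 (limma-voom), 98 and 1508 on log2(TPM + 1), 60 and 444 on log2(TPM + 0.1), 220 and 1061 on log2(FPKM + 1) and 197 and 590 on log2(FPKM + 0.1). With a library left out they were 0 to 2477 higher and 0 to 2695 lower. Without sorted library 3 and among protein-coding genes alone, 3 family genes were higher and 3 lower, 14 and 8 list genes, and 2448 and 2602 of all genes.

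The libraries share replicate numbers 2 and 3 between groups. Deviations of same-numbered libraries from their group means correlated across genes at 0.05 and 0.07. With 2 controls, the deviation of 1 control is that of the other with its sign turned, so these values cannot settle whether libraries are paired. The main fit did not take the numbers as pairs. With a replicate block 1 family gene was higher (IGFBP4; IGFBP6 had an adjusted p of 0.0588), 1 list gene was lower, CAV1 and STC2 lost their calls (adjusted p = 0.162 and 0.084), and 192 and 219 of all genes were higher and lower. With few counts, IGFBP2 and IGFBP5 cannot be sized in sorted cells beyond the floors given.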
